A study of Mus musculus with 8 samples.

Results

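Argonaute binding was described for 9 glutamate receptor genes of the mouse forebrain. They are the NMDA receptor subunit genes Grin1, Grin2a, Grin2b and Grin3a and the metabotropic receptor genes Grm3, Grm4, Grm5, Grm7 and Grm8. A cluster, which is a stretch of genome covered by reads from RNA crosslinked to Argonaute, was assigned to a gene when the 3' UTR, CDS, 5' UTR or intron column of the deposited table named that gene exactly. The 9 genes are among 9962 genes named in those columns. They held 429 of the 70142 clusters and 10158 of the 1834586 reads.

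The clusters come from FLAG-Ago HITS-CLIP, in which tissue is irradiated with ultraviolet light, a tagged Argonaute protein is pulled down and the RNA bound to it is sequenced. The 3 control libraries came from mice with the allele Rosa-Stopfl/fl-Flag-Ago2 alone, a tagged Ago2 in the ROSA26 locus kept silent by a stop cassette. The 5 Flag-Ago2 libraries came from mice that carry this allele and Camk2a-cre, in which Cre driven by the Camk2a promoter turns the tagged Ago2 on. Forebrains came from mice aged 8 to 14 weeks and belong to 3 experiments. The Flag-Ago2 libraries are numbered 1, 2a, 2b, 3a and 3b, and the labels do not say whether a and b are separate mice. The labels name the cells as Camk2a neurons because of the Cre driver. In the deposited table the libraries are not separated. No value below therefore has a replicate spread, a test between the groups or a background from the control mice.

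Fast excitatory transmission in the forebrain is accompanied by slower signals through NMDA receptors, which are calcium-permeable channels. An NMDA receptor contains the obligatory GluN1 subunit, encoded by Grin1, together with GluN2 subunits such as those encoded by Grin2a and Grin2b, or with a GluN3 subunit such as that of Grin3a. Metabotropic receptors act through G proteins. Group I receptors such as the product of Grm5 couple to phospholipase C, while group II (Grm3) and group III (Grm4, Grm7 and Grm8) inhibit adenylyl cyclase. Argonaute loaded with a microRNA (miRNA) pairs with RNA mainly through the seed at the 5' end of the miRNA, and such pairing in a 3' UTR usually lowers the stability or translation of the mRNA.

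The miRNAs that the seed results turn on are printed 5' to 3' from RefSeq, on the GRCm38.p6 assembly, with bases 2 to 8 in capitals. The first group has matches in several 3' UTR clusters of the receptors.
mmu-miR-129-5p: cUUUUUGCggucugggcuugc
mmu-miR-103-3p: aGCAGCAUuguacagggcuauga
mmu-miR-15b-5p: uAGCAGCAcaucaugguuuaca
mmu-miR-7a-5p: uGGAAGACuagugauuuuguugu
mmu-miR-22-3p: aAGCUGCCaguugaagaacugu
mmu-miR-125b-5p: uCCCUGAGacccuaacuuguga
mmu-miR-137-3p: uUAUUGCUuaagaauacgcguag
The second group is printed because a site described for it has a long match or lies in a deep cluster.
mmu-miR-9-5p: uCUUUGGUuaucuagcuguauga
mmu-miR-17-5p: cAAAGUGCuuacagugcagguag
mmu-miR-23a-3p: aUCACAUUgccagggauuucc
mmu-miR-27b-3p: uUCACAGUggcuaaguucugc
mmu-miR-128-3p: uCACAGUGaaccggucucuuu
Each name stands for all miRNAs with the same 6-mer, which the counts cannot separate, so that miR-15 includes miR-16 and miR-17 includes miR-20. None of these 12 share bases 2 to 8. The seed of miR-103 is that of miR-15 moved by 1 base, and the same holds for miR-128 and miR-27, so one stretch of RNA can match both members of such a pair.

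The receptor genes carried their clusters mostly in introns. Of the 429 clusters, 387 were intronic (9033 reads), which is 90.2% (95% Wilson interval 87.0 to 92.7). In the whole table, 58.6% of the 55842 clusters assigned to a gene were intronic. By gene the share ran from 42.9% (Grin3a) and 59.1% (Grin1) to 97.9% (Grin2a). Grin2a, Grm7, Grin2b and Grm5, each with over 400 kb of intron, held 93, 88, 86 and 62 of the 387 intron clusters. The remaining 42 exonic clusters held 1125 reads: 16 lay in 3' UTRs (406 reads), 22 in CDS (604 reads) and 4 in 5' UTRs (115 reads). Each cluster counts once, for the first of 3' UTR, CDS, 5' UTR and intron that names a gene. Clusters of 1 gene share their transcripts, so the interval covers counting error only.

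All 9 genes had an intron cluster, against 28.0% of the 21924 protein-coding genes, and all 9 had an exonic cluster, against 35.7%. A CDS cluster was present in 7 of 9 (all genes 26.9%), the exceptions being Grin3a and Grm4. A 3' UTR cluster was named for 6 of 9 (all genes 21.5%), the exceptions being Grin2a, Grm4 and Grm8. A 5' UTR cluster was present in Grin2b, Grin3a, Grm4 and Grm8, which is 4 of 9 (all genes 3.29%). The genes were chosen with the table's results known, and the shares over all genes include genes not expressed in brain. Of the 6 other NMDA and metabotropic receptor genes, which are outside the list, 4 had an exonic cluster and 1 had an intron cluster. The counts out of 9 therefore depend on which receptor genes were listed.

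**Figure D1:**
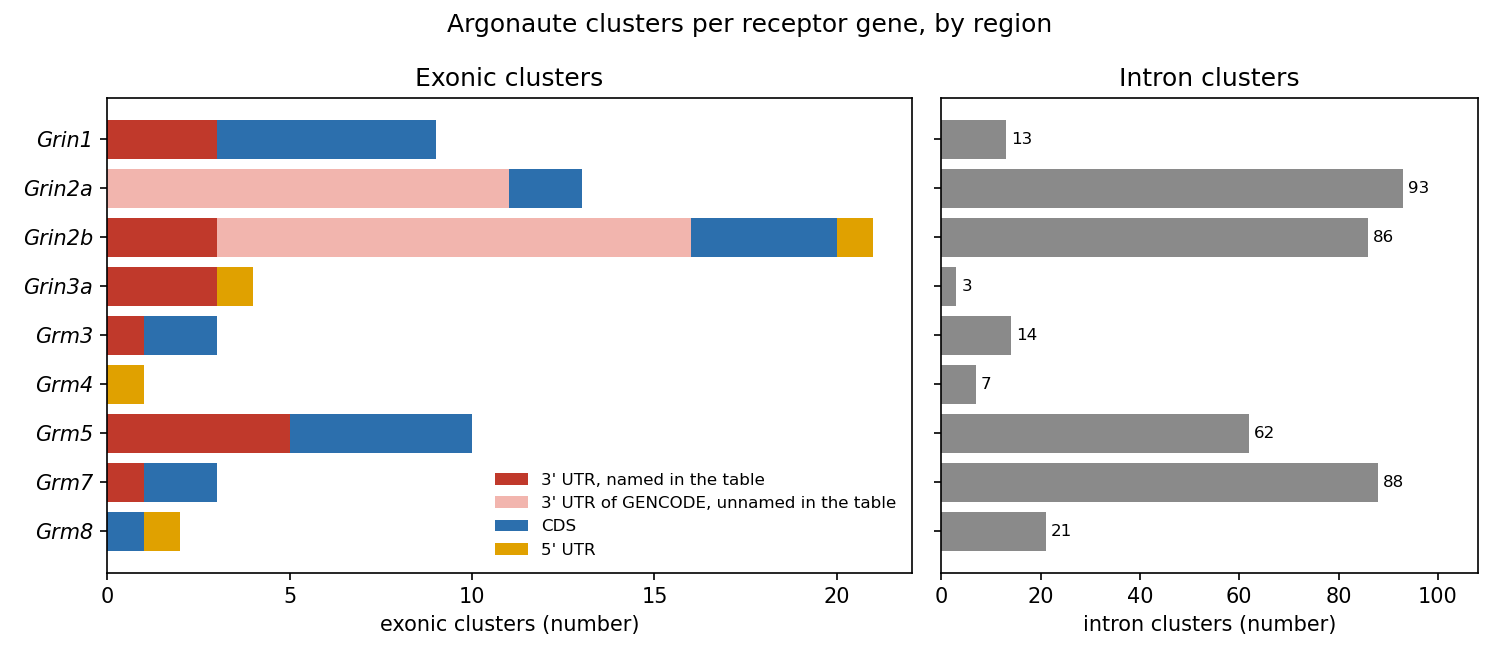
Number of clusters per gene (x axis) in exons (left, stacked by region) and introns (right); each bar is 1 gene and has no error bar because the table holds 1 value per cluster. Grin2a, Grm7 and Grin2b have 93, 88 and 86 intron clusters, and the pale segments are the 11 and 13 clusters of Grin2a and Grin2b that lie in an annotated 3' UTR but carry no gene name in the table.

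Reads per cluster were low. The median over the members' clusters was 20 reads, with a range from 10, the lowest value in the table, to 144, and the median over the whole table was 18. Only 3 of the 429 clusters (0.699%) reached 100 reads, against 1.37% of all clusters. These were an exonic cluster of Grin1 and an intron cluster each of Grin2b and Grin2a. Depth of single libraries is unknown here, and reads were not scaled to the abundance of each RNA, so differences between genes below are differences in bound reads and not in binding per transcript.

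**Figure D2:**
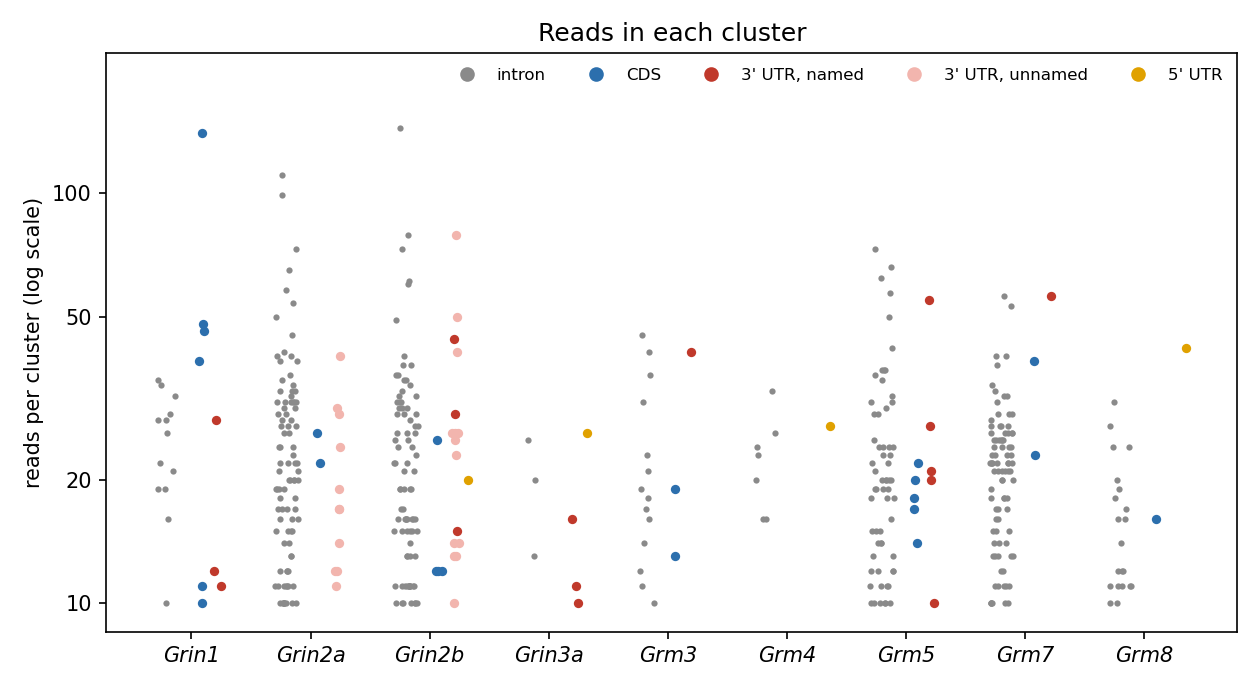
Reads in every cluster of the 9 genes (y axis, log scale), with 1 point per cluster coloured by region and spread sideways for visibility. The highest points are the Grin2b intron cluster of 144 reads and the Grin1 CDS cluster of 140 reads, while 3' UTR clusters named in the table reach 56 reads.

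Grin1, which encodes the subunit present in every NMDA receptor, had the most reads in named exonic clusters of the 9 genes, 345 in 9 clusters. The deepest exonic cluster of all 9 genes lay in it, with 140 reads at chr2:25303830-25304005 (mm10, minus strand). That cluster is named for CDS and intron, and 99 of its 176 bases are in exon 8 of 21 of Grin1-204, the rest being in the intron that follows. It held no match to any of the 29 miRNA families examined. The other Grin1 CDS clusters with at least 20 reads had 48 reads (chr2:25296621-25297040, across exons 16 and 17), 46 reads (chr2:25298019-25298285, exon 11) and 39 reads (chr2:25305181-25305398, across exons 6 and 7). Each of those also extends into intron, and the CDS cluster of 10 reads is named for intron too. Like the deepest, these clusters count as exonic because CDS comes before intron in the order used. The lead of Grin1 in exonic reads and its CDS density depend on that order. The lead also leaves out unnamed clusters in the annotated 3' UTR of Grin2b, described below, which alone held 360 reads. Per length, Grin1 had 2.04 CDS clusters per kb, where genes with a CDS cluster have a median of 0.913 (quartiles 0.583 and 1.5, 5898 genes).

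The 3 clusters in the Grin1 3' UTR had 28, 12 and 11 reads, a density of 2.67 per kb of 3' UTR against a median of 0.832 (quartiles 0.472 and 1.48, 4702 genes). Those of 28 and 12 reads are also named for CDS and intron. The deepest, at chr2:25291986-25292146, begins 225 bases after the last coding base in exon 21. It carries a miR-15 match and, shifted by 1 base, a miR-103 match. In the site printed next, the capitals mark the 6-mer paired with miRNA bases 2 to 7.
Grin1 3' UTR, miR-15 site, chr2:25291993-25292022: caaggacactgatgagtcctGCTGCTcggg
The site also pairs with base 8 of miR-15b (a 7mer-m8). The gene Grin1os is named as antisense to 6 of the 9 exonic Grin1 clusters, and the clusters are assigned here by the strand given in the table.

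Grin2a and Grin2b encode the main regulatory subunits of forebrain NMDA receptors, of which Grin2b predominates early in life and Grin2a rises after birth. The table names 0 clusters for the 3' UTR of Grin2a and 3 for that of Grin2b. The annotated 3' UTRs of both genes are long in GENCODE M21, at 9932 bases in Grin2a-206 and 18868 bases in Grin2b-201. Within them, on the same strand, lay 11 clusters (225 reads) for Grin2a and 13 clusters (360 reads) for Grin2b that have no gene in any region column of the table.
Counted together, Grin2a had 11 and Grin2b 16 clusters in the 3' UTR, with 225 and 448 reads. Such unnamed clusters were found in 2 of the 9 receptor genes, against 1.74% of protein-coding genes, and in none of the other 7.

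Among all 12108 clusters of the table with neither a region nor an antisense gene, 779 (6.43%) lay in an annotated 3' UTR on the same strand, in 382 genes with a median of 1 per gene. By the number of these clusters, Grin2b ranked 2 and Grin2a ranked 4 of the 382. With named and unnamed clusters together, 7 of the 9 genes had a 3' UTR cluster (all genes 22.5%), and Grin2b ranked 5 and Grin2a 15 of 4937 genes by their number. Per kb of 3' UTR the 2 genes had 0.818 (Grin2b) and 1.11 (Grin2a) clusters against a median of 0.831 (quartiles 0.476 and 1.47).

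**Figure D3:**
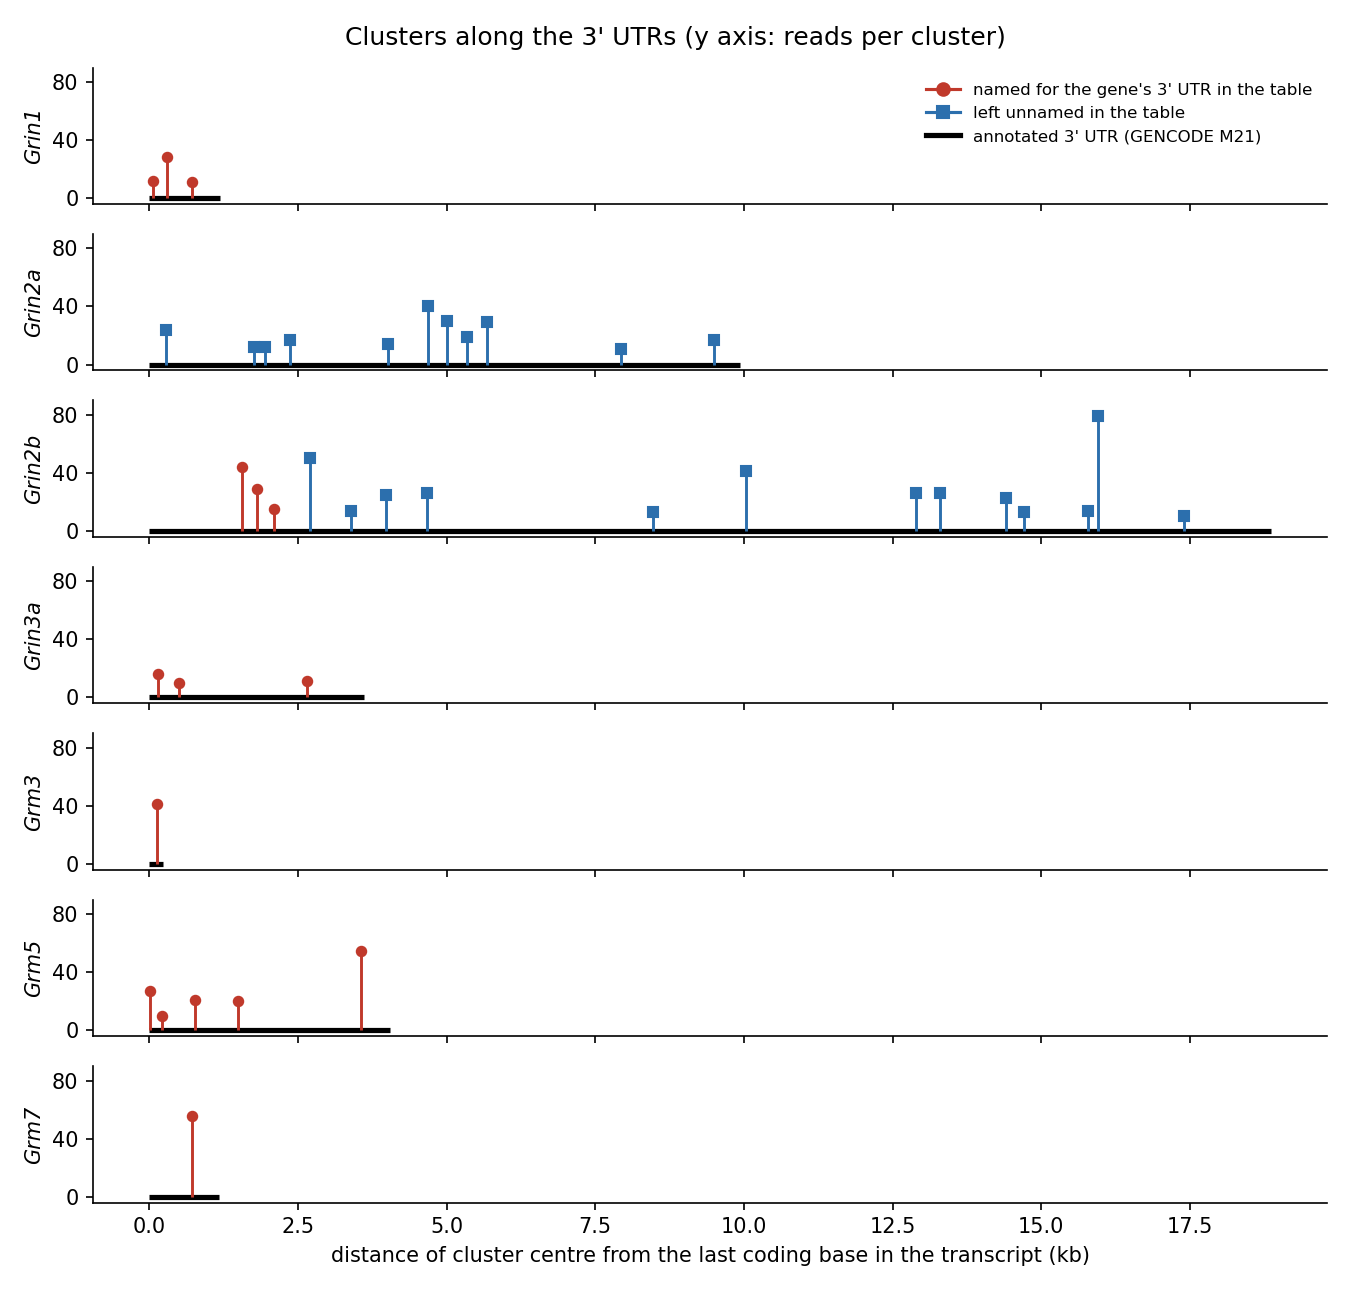
Clusters along the 3' UTRs of the 7 genes that have any, with distance from the last coding base on the x axis (kb) and reads per cluster on the y axis; the black bar is the annotated 3' UTR. The named clusters of Grin2b lie between 1471 and 2171 bases, and the unnamed ones run from 2459 to 17450 bases.

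The 3 named Grin2b clusters had 44, 29 and 15 reads and lay between 1471 and 2171 bases after the last coding base. All 3 fall inside the shorter 3' UTR of 2275 bases that GENCODE gives for Grin2b-202. The 13 unnamed clusters followed from base 2459 to base 17450, with 10 to 79 reads each. Of these, 4 lay before base 5000 (115 reads) and 9 lay after base 8000 (245 reads, 68.1% of the unnamed reads). The deepest 3' UTR cluster of the receptor genes, with 79 reads, was the unnamed one at chr6:135716050-135716233, some 15868 to 16051 bases after the coding sequence. It held no match to any of the 29 families.

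In Grin2a the 11 unnamed clusters had 11 to 40 reads and lay between 231 and 9595 bases after the coding sequence. The densest stretch held 4 clusters of 40, 30, 19 and 29 reads between bases 4553 and 5781, which is 118 of the 225 reads (52.4%). Of these 4, the clusters of 40, 19 and 29 reads each held a match to miR-125. Those sites are printed in the order of the transcript, because 3 matches to the same seed lie in this stretch.
Grin2a 3' UTR, miR-125 site 1, chr16:9573113-9573142: tctaggaaggatgatagggcTCAGGGggat
Grin2a 3' UTR, miR-125 site 2, chr16:9572503-9572532: gaggaagaggggatctttttTCAGGGatct
Grin2a 3' UTR, miR-125 site 3, chr16:9572110-9572139: aaaagtcctttcctgagtttTCAGGGactt
The sites begin 4708, 5318 and 5711 bases after the last coding base and lie 21, 20 and 32 bases from the centres of their clusters. The first pairs with base 8 of miR-125b (7mer-m8), and the other two have an A opposite base 1 (7mer-A1). Counting Grin2b as well, miR-125 matched 4 of the 40 named and unnamed 3' UTR clusters (10.0%, Wilson interval 3.96 to 23.1), against 6.97% of the 10063 such clusters in the table.

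Other sites in Grin2a included an 8mer for miR-9, which pairs with bases 2 to 8 and has an A opposite base 1, and matches to miR-137 in 3 of the 11 clusters. The members' share for miR-137 was 3 of 40 (7.5%, interval 2.58 to 19.9), against 3.3% in the table, and all 3 were in Grin2a. The 2 printed sites are the miR-9 8mer, in the 19-read cluster, and the miR-137 site at the centre of a 24-read cluster.
Grin2a 3' UTR, miR-9 site, chr16:9572448-9572477: acacagtttaaagcttcaaaCCAAAGattt
Grin2a 3' UTR, miR-137 site, chr16:9577537-9577566: catggtgactgggtatggcgGCAATAatgg
The deepest Grin2a cluster, at chr16:9573004-9573277, held matches to miR-125, miR-137, miR-15 and miR-103.

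The named Grin2b clusters matched miR-181 and miR-29 in the deepest (44 reads, chr6:135730449-135730630) and miR-9, miR-29, miR-103 and miR-124 in the next (29 reads, chr6:135730192-135730388). Of the unnamed clusters, the one of 50 reads at chr6:135729161-135729642 had an 8mer for miR-17 placed 9 bases from its centre. A cluster of 25 reads at chr6:135728033-135728212 had a 7mer-m8 for miR-128, a miRNA abundant in brain.
Grin2b 3' UTR, miR-17 site, chr6:135729386-135729415: atctgtgagaagtgagcacgCACTTTacct
Grin2b 3' UTR, miR-128 site, chr6:135728070-135728099: cttgttatttccaagctgtcACTGTGtatc
In CDS, Grin2b had 4 clusters, of which the deepest had 25 reads (chr6:135733080-135733212, exon 14), and its 5' UTR cluster had 20 reads (chr6:136171631-136171769, exon 2). Grin2a had 2 CDS clusters, with 26 reads (chr16:9663407-9663510, exon 7) and 22 reads (chr16:9992323-9992556, exon 3). These are 0.899 and 0.455 CDS clusters per kb, both below the median of 0.913.

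Grin3a encodes a GluN3 subunit that lowers the calcium permeability of the receptor. It had the fewest clusters of the 9 genes, 7 with 121 reads in all, and was the only one of them with fewer intron (3) than exonic (4) clusters. Its 3' UTR clusters had 16, 11 and 10 reads, or 0.829 per kb against the median of 0.832. The deepest of these, at chr4:49664975-49665182, matched miR-7 and miR-22. The deepest exonic cluster had 26 reads and is named for the 5' UTR (chr4:49845616-49845724), although none of its bases lie in an exon of Grin3a-202, the transcript used for Grin3a.

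Grm5, the group I receptor that couples to phospholipase C, had the most named exonic clusters, 10 with 224 reads, and the most named 3' UTR clusters. With unnamed clusters counted, Grin2a and Grin2b had more, at 11 and 16 in the 3' UTR alone. Its 5 clusters in the 3' UTR had 55, 27, 21, 20 (chr7:88132311-88132424) and 10 reads. The deepest lay near the end of the 4041-base 3' UTR, from 3442 to 3666 bases after the coding sequence (chr7:88134308-88134532, exon 10). It held matches to miR-7, miR-15, miR-22 and miR-23, and the miR-23 match was an 8mer 24 bases from its centre. The next, of 27 reads (chr7:88130820-88130945), spans the stop codon and has a miR-24 match that begins with the stop codon.
Grm5 3' UTR, miR-23 site, chr7:88134421-88134450: ggatttcactgatcttcccaATGTGAacaa
The Grm5 cluster of 21 reads (chr7:88131455-88131804) held 6 matches to miR-129, whose 6-mer is CAAAAA, within an A-rich run. Density was 1.24 per kb in the 3' UTR and 1.39 per kb in CDS, where the deepest of 5 clusters had 22 reads (chr7:87602782-87602890, exon 3). A further CDS cluster, at chr7:88130512-88130791 in exon 10, had 20 reads. Exons of Grm5 are numbered on the transcript Grm5-202.

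Grm3, a group II receptor found in neurons and in astrocytes, had 1 cluster in the 3' UTR with 41 reads and 2 in CDS with 19 and 13 reads. The 3' UTR cluster (chr5:9485464-9485722) covers 182 of the 230 annotated bases and runs on past the end of the gene, so its density of 4.35 per kb rests on a very short annotated 3' UTR. It matched miR-15, miR-30, miR-103 and miR-129.

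The group III receptors Grm4, Grm7 and Grm8 reduce transmitter release from nerve endings. Grm7 had the deepest 3' UTR cluster named in the table, with 56 reads at chr6:111566683-111566872 (exon 10). It held the only miR-128 match among the 16 named clusters (6.25%, interval 1.11 to 28.3, against 13.6% in the table) and 2 matches to miR-129, each of them a 6mer. The density of 0.655 clusters per kb lay within the quartiles for all genes.
Grm7 3' UTR, miR-128 site, chr6:111566716-111566745: aagatacttaaagaccaaaaACTGTGctgg
The 2 Grm7 CDS clusters had 39 reads (chr6:111080325-111080544, exon 4) and 23 reads (chr6:111246137-111246362, exon 6), and both extend into intron.

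Grm8 had 0 clusters in its 3' UTR, 1 in CDS (16 reads, chr6:27761199-27761294, exon 5) and 1 in the 5' UTR with 42 reads (chr6:28126243-28126355, exon 2). The 5' UTR cluster was the deepest of the 4 in the receptor genes. It held an 8mer for miR-27 and, shifted by 1 base, an 8mer for miR-128.
Grm8 5' UTR, miR-27 site, chr6:28126274-28126303: gaggatctgttggaaattcaCTGTGAagtt
Grm4 had 1 exonic cluster, of 27 reads in the 5' UTR column (chr17:27503509-27503715), with 25 of its 207 bases in exon 2. It matched miR-125. For Grm4 and Grm8 the table's lowest cluster of 10 reads sets what could be seen in the 3' UTR, and a site with fewer reads would not be listed.

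Over the 16 named 3' UTR clusters, 13 (81.2%) held a match to at least 1 of the 29 families, against 81.5% of the 9284 named 3' UTR clusters in the table. Over the 24 unnamed ones, 16 (66.7%) did, against 79.2% of the 779. The families in the most named clusters were miR-103 with 4 of 16 (interval 10.2 to 49.5%; all such clusters 9.58%), and miR-129 (all such clusters 6.02%), miR-15 (all such clusters 10.3%), miR-22 (all such clusters 7.78%) and miR-7 (all such clusters 7.66%), each with 3 of 16 (18.8%, interval 6.59 to 43.0). The table's shares for miR-15, miR-22 and miR-7 lie inside the interval, and those for miR-103 and miR-129 lie just below it. The clusters were not drawn independently, and no test was made.

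With the unnamed clusters added, miR-103 was matched in 5 of 40 (12.5%, interval 5.46 to 26.1), against 9.51% in the table, which then lies inside the interval. Here miR-129 came first with 7 of 40 (17.5%, interval 8.75 to 31.9), against 6.06%, and it was found in 5 genes: Grin2a, Grin2b, Grm3, Grm5 and Grm7. In Grin2a, Grin2b and Grm7 all miR-129 sites in these clusters were 6mers, and the Grm3 site could not be read. Longer miR-129 matches were read only in the A-rich run of Grm5. The miR-128 share was 3 of 40 (7.5%, interval 2.58 to 19.9), against 13.8% in the table. Receptor clusters were wider than those of the table, with a median of 166.5 against 144 bases. Of 69 matches whose sequence could be read, 42 (60.9%) were 6mers, 14 were 7mer-A1, 9 were 7mer-m8 and 4 (5.8%) were 8mers. Those 4 8mers are miR-23 and miR-129 in Grm5, miR-9 in Grin2a and miR-17 in Grin2b.

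**Figure D4:**
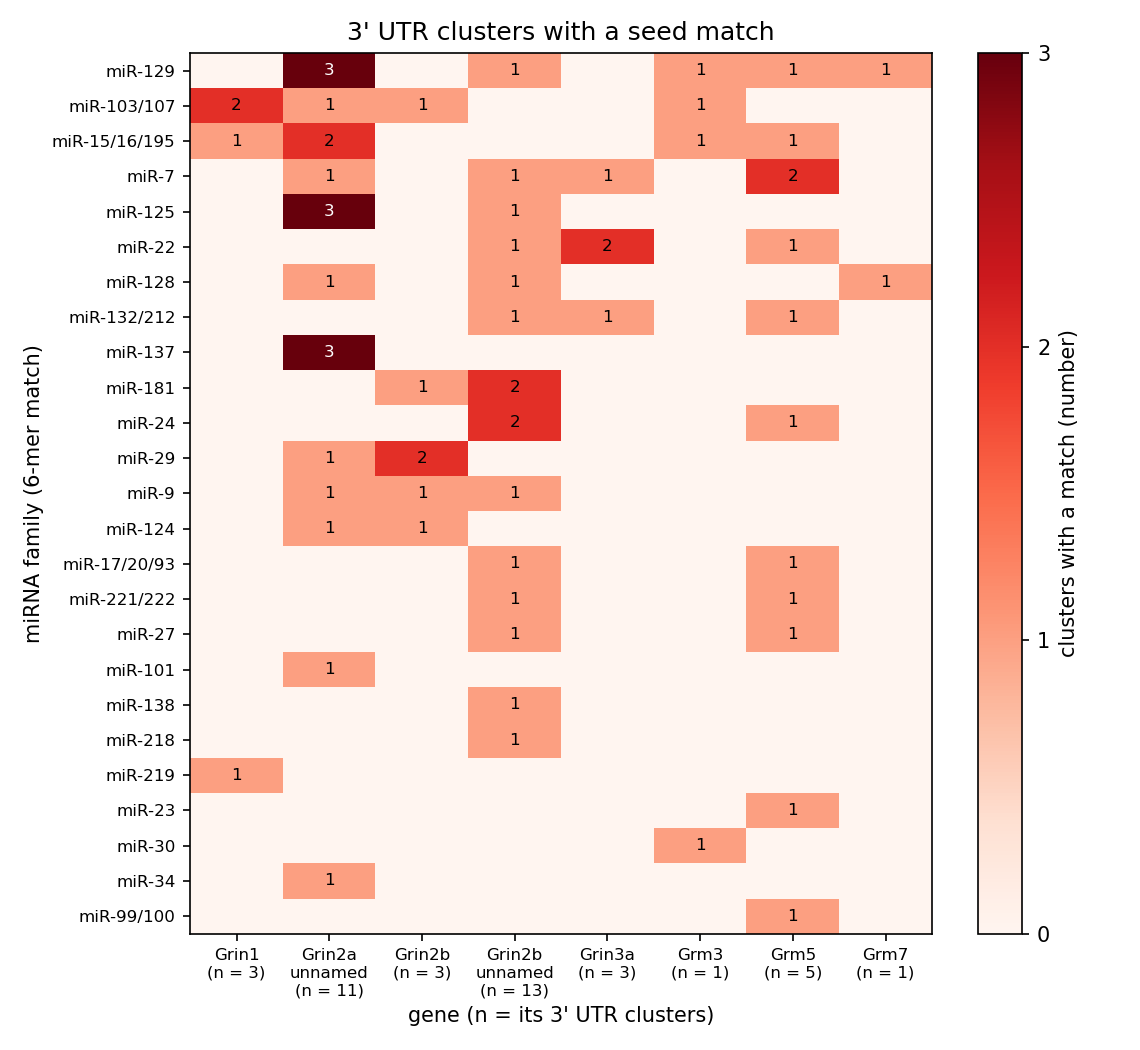
Number of 3' UTR clusters (colour and digit) with a 6-mer match to each miRNA family (rows) in each gene (columns, n clusters); columns marked unnamed hold clusters without a gene name in the table. Grin2a has 3 clusters each for miR-125, miR-129 and miR-137, and no other cell exceeds 2.

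Intron clusters spread over long introns in most of the genes. Grin1 has the least intron sequence of the 9, 18.3 kb, and the highest density, 71.0 clusters per 100 kb from 13 clusters. In genes with 10 to 50 kb of intron and an intron cluster, the median is 6.38 (quartiles 4.03 and 9.69, 2448 genes). Grin2a and Grin2b followed with 22.7 and 19.8 per 100 kb, Grm5 had 11.5, Grm7 9.61 and Grm8 2.47. All 5 belong to the 311 genes with over 400 kb of intron and an intron cluster, where the median is 3.28 (quartiles 1.58 and 7.13), so 4 of the 5 lie above the upper quartile and Grm8 lies within the quartiles.

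Grm4 had 7.52 per 100 kb, above the upper quartile of 6.42 for genes with 50 to 100 kb of intron. The Grm3 value of 5.92 was at the upper quartile of 5.92 for genes with 200 to 400 kb. Grin3a had 1.75 per 100 kb, between the lower quartile of 1.28 and the median of 3.13 for genes with 100 to 200 kb. Among all 6131 genes with an intron cluster, Grin1 ranked 76 by density, and Grin2a ranked 30, Grm7 31 and Grin2b 33 by number.

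**Figure D5:**
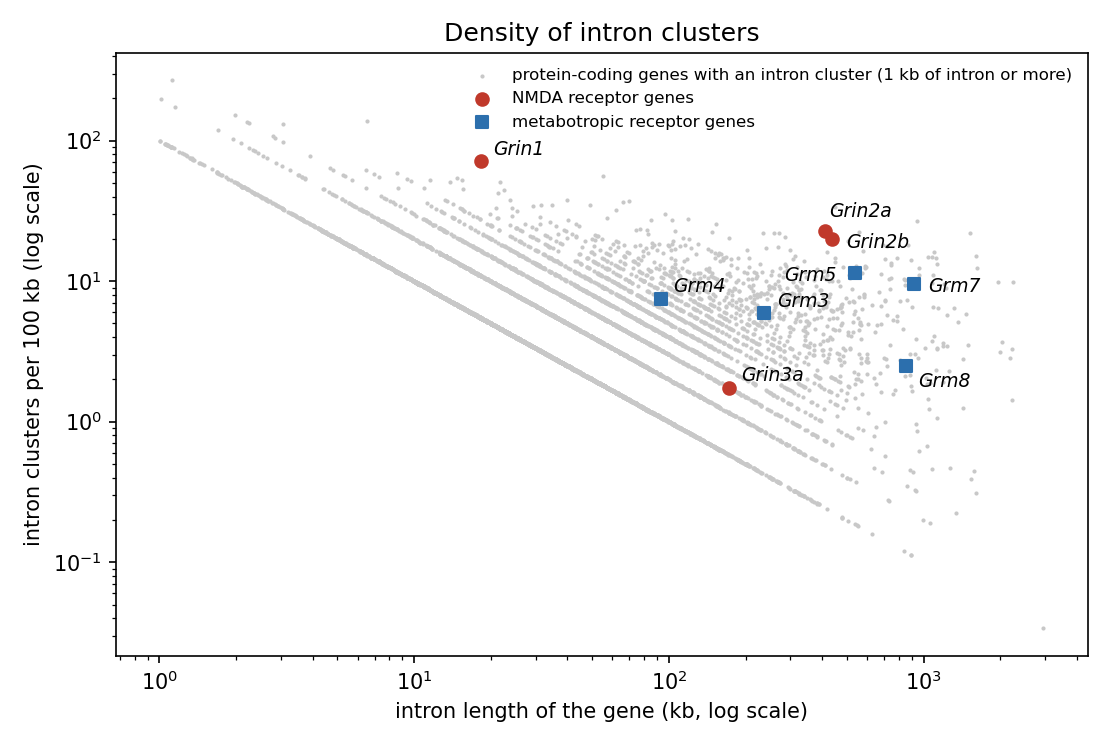
Intron clusters per 100 kb (y axis, log scale) against the intron length of the gene (x axis, kb, log scale) for protein-coding genes with an intron cluster; 1 point per gene, and the diagonal lines of grey points are genes with equal small numbers of clusters. Grin1 at 71.0 and Grin2a and Grin2b at 22.7 and 19.8 sit near the upper edge of the genes of similar length, while Grin3a (1.75) and Grm8 (2.47) do not.

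Within Grin2a, 77 of the 93 intron clusters (2040 reads) fell in intron 3, the longest at 230 kb, which is 33.5 per 100 kb there. Its 3 deepest clusters were all in intron 3, with 111 reads (chr16:9950507-9950884), 99 reads (chr16:9860638-9860741) and 73 reads (chr16:9815403-9815521). In Grin2b the clusters were spread over introns 2 and 3 (28 each), 4 (14) and 5 (10). Intron 5 held the deepest cluster of all 9 genes, with 144 reads (chr6:135815345-135815647), and the third of Grin2b, with 73 reads (chr6:135802677-135802846). The other deep one had 79 reads and was in intron 3 (chr6:135972778-135972836).

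In Grm5, 27 of the 62 intron clusters lay in the first intron of Grm5-204, with the deepest at 73 reads (chr7:87723216-87723323) and 66 reads (chr7:87707707-87707865), and the third, of 62 reads, was in intron 2 (chr7:87872503-87872686). Grm7 had 32 of 88 in its first intron, with 56 reads in the deepest (chr6:110761340-110761522), followed by 53 reads in intron 8 (chr6:111422435-111422719) and 40 reads in intron 4 (chr6:111161663-111161811). One Grm7 intron cluster overlaps a 3' UTR of the gene in GENCODE. Introns are numbered on Grm5-204 and Grm7-201, but the exons given above on Grm5-202 and Grm7-202. Exon and intron numbers of these genes therefore need not line up.

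The remaining genes had shallower intron clusters. The 3 deepest were 45 reads (chr5:9715272-9715382), 41 reads (chr5:9651578-9651689) and 36 reads (chr5:9654612-9654753) for Grm3, all in intron 1. For Grin1 they were 35, 34 and 32 reads, in introns 9, 9 and 7 (chr2:25299798-25299900, chr2:25303414-25303676 and chr2:25304546-25304689). For Grm4 they were 33, 26 and 24 reads, in introns 2, 3 and 2 (chr17:27487962-27488148, chr17:27465591-27465757 and chr17:27485083-27485199). Grm8 reached 31, 27 and 24 reads, in introns 3, 6 and 7 (chr6:27886406-27886528, chr6:27686185-27686305 and chr6:27500709-27500988). Grin3a reached 25, 20 and 13 reads, in introns 3, 3 and 1 (chr4:49726516-49726610, chr4:49740085-49740267 and chr4:49803505-49803668). Of the 7 Grm4 intron clusters, 6 carry a circRNA identifier, as do 41 of the members' 387 intron clusters (10.6%, all such clusters 15.0%).

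A circRNA identifier also marked 12 of the 22 CDS clusters (54.5%, all such clusters 26.7%), 3 of the 16 named 3' UTR clusters, all in Grm5 (18.8%, all such clusters 4.47%), and 2 of the 4 5' UTR clusters (all such clusters 7.27%). Reads from a circular and a linear RNA of the same exon cannot be told apart in these counts. Seed matches in the introns were near the table's level: 68.2% of the 387 held a match to 1 of the 29 families, against 69.3%. The families found most often there were miR-27 in 50 clusters (12.9%, interval 9.94 to 16.6; all such clusters 10.4%) and miR-128 in 35 (9.04%, interval 6.57 to 12.3; all such clusters 11.5%). The next was miR-129 in 34 intron clusters (8.79%, interval 6.36 to 12.0; all such clusters 5.4%). The table's share for miR-129 lay below the interval in introns and in 3' UTRs. It lay inside the interval in CDS (1 of 22, 4.55%, interval 0.807 to 21.8; all such clusters 4.76%), and 0 of the 4 5' UTR clusters matched. This family is singled out because it ranked high among the 29.

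Most genes known to act with these receptors also had exonic clusters. Of 16 genes for NMDA receptor partners, 15 had an exonic cluster (all protein-coding genes 35.7%), led by Camk2a (618 exonic reads), the kinase activated by calcium through the receptor, and Dlg2 (466), a scaffold of the postsynaptic density. Of 14 genes of group I signalling, 13 did, led by Itpr1 (429), the intracellular calcium channel opened by inositol trisphosphate, and Ncdn (325), whose product binds group I receptors. Of 14 genes of group II and III signalling, 13 did, led by Adcy1 (1214), an adenylyl cyclase, and Gnao1 (301), a G protein subunit. The median of exonic reads, genes at 0 included, was 73.0 over the 9 receptor genes, 110 over NMDA partners, 149 over group I signalling and 100.5 over group II and III signalling, against 0.0 over all 21924 protein-coding genes. Over the 7837 of these with an exonic cluster it was 49, which is not a like comparison because the 3 partner and signalling lists also hold Srr, Homer3 and Grip1, each at 0. Of receptor genes outside the 9, Grin2c had 71 exonic reads, and Grin3b and Grm6 had no cluster in any region.

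Markers of several cell types had exonic clusters in the same table. Against the same 35.7% of all protein-coding genes, counts were 7 of 8 for excitatory forebrain neurons (1241 reads, Emx1 at 0), 8 of 8 for astrocytes (2088 reads, led by Slc1a2 with 1105), 5 of 6 for oligodendrocytes (748 reads, Mog at 0), 3 of 6 for interneurons (308 reads; Pvalb, Sst and Vip at 0) and 3 of 6 for microglia (66 reads; P2ry12, Tmem119 and Aif1 at 0). The table does not divide these by group, so whether the clusters of receptors that astrocytes also express, such as Grm3, came from Camk2a neurons was not tested.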

How the data were processed

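FLAG-Ago HITS-CLIP was made from forebrain of 5 Flag-Ago2 and 3 control samples. Per the labels' protocols, tissue was irradiated 3 times at 400 mJ/cm2, digested with RNase A, precipitated with the M2 FLAG antibody and amplified with 15 PCR cycles. BWA and the mm10 build are named in the submitters' processing notes. How clusters were called, which libraries were pooled, how controls entered and whether PCR duplicates were removed is not given in the sources used here. Each deposited count, per the file headers, gives reads in a cluster for all libraries together, with a lowest value of 10 and 0 columns that hold a single library. The deposited seed columns hold a score for each of 1281 miRNAs, the number of 6-mer matches to bases 2 to 7 that overlap the cluster by at least 1 base.

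From these, each cluster was given 1 region per gene. Coordinates are 1-based on mm10. Lengths, exons, 3' UTRs and site sequences came from GENCODE M21 on the same assembly, where 9476 of the 9962 gene names matched a protein-coding gene and all 9 members did. Distances in a 3' UTR count from the last coding base, so they include the stop codon. For the 8307 named 3' UTR clusters inside 1 exon, the 6-mers recounted from the transcripts equalled the deposited number in 232594 of 232596 pairs of cluster and family. CDS, 5' UTR and unnamed clusters were not part of that comparison. Of the 29 miRNA families, 28 had a mature sequence in the set of RefSeq sequences used here. That set lacked miR-124, which is named only. Sites pairing with base 8 are 7mer-m8, sites followed by an A 7mer-A1, and sites with both 8mer. Shares carry 95% Wilson intervals, and reads without molecular identifiers make these cover counting error only. The functions were checked on simulated sequences and intervals.

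The text names all 9 members, their exonic clusters of at least 20 reads, each member's deepest exonic cluster and 3 deepest intron clusters, the families in the deepest 3' UTR clusters and the 5 most frequent families. It also names the top 2 genes of the lists of partner and signalling genes. The list of other NMDA and metabotropic receptor genes is reported here only in part. Other sites, and all unnamed clusters, were chosen after their values were seen. The members, lists and families were chosen with earlier results of these data known. Alternatives were other read minimums, all region columns, clusters naming 1 gene, clusters without circRNA identifiers, lengths of single transcripts and 7-mers. Python 3.11.15 with pandas 2.3.3, numpy 2.4.6, scipy 1.17.1 and matplotlib 3.10.9 was used.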

Additional observations from a re-analysis of the deposited data

Results flagged for a closer look

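Clusters outside the region columns were listed for 8 of the 9 genes, the exception being Grin1. The share of all genes with such clusters was not counted, so this count cannot be read as particular to the receptors. They lie in an annotated 3' UTR without a gene name, opposite the gene, or past its annotated end on the same strand (4 for Grm3 and 1 for Grm4, described under the other observations). The table holds no cluster under 10 reads, so their reads cannot be set against a lower limit of detection. In Grin2a, 11 clusters lie in the annotated 3' UTR without a gene name in the table, and in Grin2b 13 do. With 225 and 360 reads, they exceed the 0 and 88 reads of the 3' UTR clusters the table names for these genes.

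Clusters on the strand opposite to a receptor gene numbered 1 for Grin2a (21 reads), 3 for Grin2b (44 reads), 1 for Grin3a (16 reads), 3 for Grm5 (61 reads), 3 for Grm7 (39 reads) and 1 for Grm8 (18 reads). None was seen opposite Grin1, Grm3 or Grm4. The share of all genes with an antisense cluster was not counted. The 12 clusters held 199 reads, 10 to 28 each, and equal 2.8% of the members' own clusters, against 3.93% for the whole table. The whole-table share counts only clusters without a gene in a region column. The members' share counts them with or without one, so the shares are not a like comparison. The deepest had 28 reads and lies opposite Grm5 at chr7:87801060-87801219. No control level can be set beside any of these.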

How the results depend on the processing

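No paired analysis was possible because the table holds no value for a single library, and for the same reason no replicate could be left out. Of 86 alternative values, 67 stayed within 1.5 times the main count or inside its interval. With at least 20 reads per cluster, 3' UTR, CDS and intron clusters numbered 9, 11 and 207. With at least 50 reads, 3' UTR clusters numbered 2 in 2 genes, CDS clusters 1 in 1 gene, 5' UTR clusters 0 in 0 genes and intron clusters 19 in 4 genes. Without clusters that carry a circRNA identifier, CDS clusters numbered 10 in 4 genes and 5' UTR clusters 2 in 2 genes. With the unnamed clusters, an alternative chosen after seeing the data, 3' UTR clusters numbered 40 and the Grin2b density rose from 0.153 to 0.818 per kb. For 7-mers of bases 2 to 8 in the 15 named clusters inside 1 exon, miR-103 and miR-7 each fell to 0%, where the table's own 7-mer shares are 2.01% and 1.42%, and miR-129, miR-15 and miR-22 each fell from 18.8% to 6.67% (all such clusters 1.23%, 4.18% and 2.78%). The cause was not tested. The falls of miR-129, miR-15 and miR-22 still count among the 67, because the interval around 18.8% starts at 6.59%. Clusters under 10 reads are not listed, which limits what can be seen in shallow regions.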

Other observations

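Downstream of the annotated ends of 2 genes, within 15 kb on the same strand, the table lists clusters that name no gene in a region column. Past Grm3 there are 4, with 16, 19, 21 and 32 reads, at 2025, 6624, 6857 and 7565 bases from the end, and the 3 farther ones are listed as antisense to 9330182L06Rik. Past Grm4 there is 1, with 13 reads at 5698 bases (chr17:27416585-27416689). Grm3 and Grm4 have annotated 3' UTRs of 230 and 1229 bases. Whether any of these clusters belongs to a longer transcript of the gene was not tested.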
